A study of Homo sapiens with 16 samples.

Results

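The response to enzalutamide was examined in LNCaP prostate cancer cells that lack RB and p53, from 8 of the 16 RNA-seq libraries of the series. The 8 libraries were chosen by their labels: 4 replicates of double knockout (DKO) cells given 50 µM enzalutamide (EZ) and 4 replicates of DKO cells given an equal volume of the solvent DMSO, both for 6 days. LNCaP is a prostate cancer line, first grown from a metastasis in a lymph node, that responds to androgens, and the knockouts were made with CRISPR-Cas9, so that drug-treated and control cells both carried them. The other 8 libraries came from LNCaP cells without the knockouts (WT), 4 with EZ and 4 with DMSO. They served to ask where the response of DKO cells differed, to check the level of RB1, and in alternative fits over all 16 libraries. All cells grew in medium with fetal bovine serum, and total RNA was depleted of ribosomal RNA before sequencing. The labels do not say whether the DKO cells were 1 clone or a pool. They also leave unsaid whether each replicate was its own culture. The p-values therefore speak of the spread among these 8 samples alone, and some of it may be technical. In bulk RNA, fewer cells of a kind and less RNA per cell cannot be told apart.

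Enzalutamide is an antiandrogen used against prostate cancer, whose luminal cells depend on androgen signalling. RB restrains E2F transcription factors and with them entry into S phase. The p53 protein activates cell cycle inhibitors and repair genes after damage. Loss of both in prostate tumours is known to accompany resistance to antiandrogens and a loss of luminal identity.

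The genotype labels were checked first. RB1 (chromosome 13, 48303726 to 48599436; all gene positions are GENCODE v29 on GRCh38) stood at 12.4, 9.92, 11.2 and 12.5 CPM (counts scaled to a common library size) in DMSO replicates 1 to 4 of DKO cells and at 11.04, 14.6, 11.5 and 13.3 CPM in EZ replicates 1 to 4. Scaled over all 16 libraries, RB1 was at 10.6 ± 1.15 CPM (SD, n = 4) in DKO DMSO cells and 115 ± 11.3 CPM (SD, n = 4) in WT DMSO cells. Every DKO library was below every WT library for RB1. The luminal marker KRT8 was present, at 272 to 346 CPM in DMSO and 320 to 384 CPM in EZ. None of 11 leukocyte markers was expressed highly enough to be tested, and their summed level, on unscaled library totals, was 0.941 to 1.58 CPM in DMSO and 0.761 to 1.11 CPM in EZ, with CD3E at 0 in all 8 libraries.

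The 8 libraries held 11823438 to 47638697 counts. Replicate numbers paired the libraries: deviations from the group means correlated at 0.516, 0.442, 0.526 and 0.680 between same-numbered DMSO and EZ libraries, over 20159 genes, and each value was the highest that library had with the other treatment. Replicates 1 and 2 had more of the structural RNA RN7SL1 (2201 to 6207 CPM on unscaled totals) than replicates 3 and 4 (735 to 1067 CPM). EZ replicate 1 stood apart in cell cycle genes, as given below, and DMSO replicate 4 had lower levels of the same genes than the other DMSO libraries. Each result was therefore also computed without pair 1.

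Enzalutamide changed 2333 of 20159 tested genes in DKO cells, which is 11.6% of them, by edgeR's quasi-likelihood test with the replicate pair as a block and a Benjamini-Hochberg adjusted p under 0.05. Of these, 1335 (6.62%) were higher and 998 (4.95%) lower in EZ. Most changes were small: the median size was 0.54 on the log2 scale, and 199 genes rose and 191 fell by more than 2-fold. The sign was the same in all 4 pairs for 2327 of the 2333 genes, and for 1362 the EZ and DMSO libraries did not overlap. Both counts were made only among genes already called from the same libraries, so they add no support to the calls. The fit without pair 1 called 3568 of 20719 genes (17.2%), with 1932 higher and 1636 lower. It included 2280 of the 2333 genes with the same direction. Leaving out pair 2, 3 or 4 gave 342, 329 and 1520 genes, and 254 genes were called in all 4 of these fits. The number of calls thus depended on pairs 2 and 3 more than on pair 1 or pair 4, and for the main gene groups the counts without each pair are given below. Of 114 called genes that the naming rule chose, 38 kept their call in all 4 fits: ABCG1, ADAMTS1, ADRA2A, BTG2, CFAP69, CYP1A1, DHRS2, DUSP4, GBP2, GBP3, GRHL2, HEPACAM2, HES1, HES6, ID1, INSIG1, LAMB3, LEF1, LRRC31, LRRN1, LTBP1, MATN2, MME, OPRK1, PRSS23-AS1, RPL5, RPS9, SEMA3C, SLIT1, SPRY4, TFF3, UAP1, UGT2B27P, UGT2B4, WWTR1, ZC3H12A and the noncoding genes ENSG00000234459 and ENSG00000272791. The other 76 lost it in at least 1 of the fits.

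**Figure D1:**
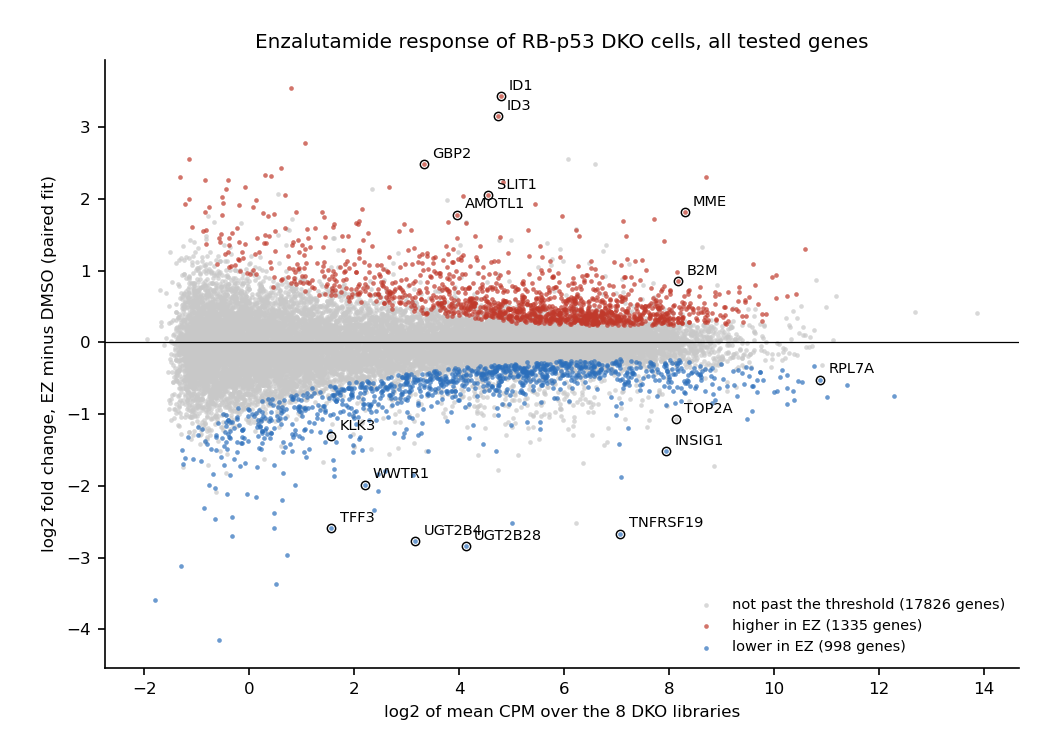
Log2 fold change of each tested gene (EZ minus DMSO, paired fit, vertical axis) against the log2 of its mean CPM over the 8 DKO libraries (horizontal axis), with 1335 higher genes in red, 998 lower genes in blue and genes past no threshold in grey. ID1 and ID3 have log2 changes of 3.43 and 3.15, and SPRY4, at a lower level, has 3.55, while TOP2A and KLK3 are grey.

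Among called protein-coding genes whose higher group averaged 5 CPM or more, the largest increases were in ID1 and ID3, inhibitors of basic helix-loop-helix transcription factors and classic targets of bone morphogenetic protein (BMP) signalling. ID1 (chromosome 20, 31605283 to 31606515) stood at 6.01, 4.38, 2.92 and 3.05 CPM in DMSO replicates 1 to 4 and at 104, 45.4, 38.2 and 17.9 CPM in EZ replicates 1 to 4. All 4 EZ libraries were above all 4 DMSO libraries, and EZ replicate 1 was the highest. Its log2 fold change was 3.43 ± 0.27 (SE), with an edgeR adjusted p of 0.00273, and the call held in all 4 fits that left out a pair. ID3 (chromosome 1, 23557918 to 23559794) stood at 5.90, 3.63, 3.58 and 5.72 CPM in DMSO and at 104, 29.3, 33.7 and 28.3 CPM in EZ. The groups did not overlap for ID3 either, with EZ replicate 1 again the highest, and the log2 change was 3.15 ± 0.32 (edgeR adjusted p = 0.00761). ID2, at 14.5 to 24.1 CPM in DMSO and 48.9 to 122 CPM in EZ, rose by 1.92 ± 0.31.

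Of the 12 tested ID genes and BMP targets, 8 rose and none fell, with a median log2 change of 0.86 against −0.02 over all tested genes. The 8 included the inhibitory SMAD genes SMAD6 (0.95 ± 0.16) and SMAD7 (0.63 ± 0.13), the pseudoreceptor gene BAMBI (0.73 ± 0.12) and the transcriptional repressor gene HEY1 (0.76 ± 0.18). The list's median was 1.42, 0.47, 0.90 and 0.56 in pairs 1 to 4. Without pair 1 the count was again 8, without pair 2 it was 3, without pair 3 it was 2 and without pair 4 it was 7. Of 16 tested BMP ligands, receptors and SMADs, 2 rose and none fell, where 6.62% of all tested genes were called higher. The ligand gene BMP7 rose from 3.97 to 5.40 CPM in DMSO to 7.41 to 20.5 CPM in EZ (1.09 ± 0.21) and the receptor gene BMPR2 by 0.38 ± 0.10. This list had 4 higher and 1 lower without pair 1 and none called without pair 2. It had 1 higher without pair 3 and 2 higher without pair 4. Of 10 TGF-beta targets 6 rose, among them LTBP1 (0.82 ± 0.12), which anchors latent TGF-beta in the matrix, and none fell. That count was 7 without pair 1, 1 without pair 2 or pair 3 and 3 without pair 4.

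**Figure D2:**
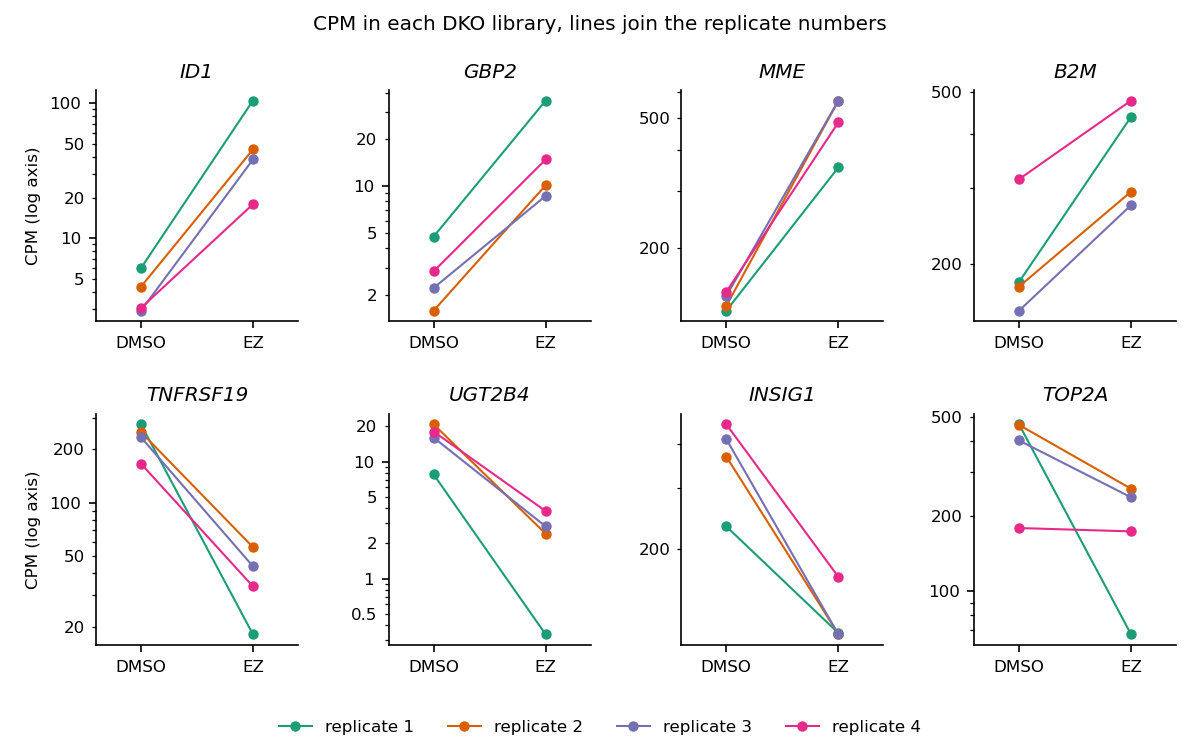
CPM (log axis, a different range in each panel) of 8 genes in the 4 DMSO and the 4 EZ libraries of DKO cells, with a line joining the libraries of each replicate number. The lines of ID1, GBP2, MME and B2M rise in all 4 pairs and those of TNFRSF19, UGT2B4 and INSIG1 fall in all 4, while TOP2A falls from 466 to 67.1 CPM in pair 1 and from 179 to 173 CPM in pair 4.

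Other large increases fell in several classes. GBP2 and GBP3 encode interferon-inducible GTPases. GBP2 (chromosome 1, 89106132 to 89150456) stood at 4.74, 1.58, 2.22 and 2.83 CPM in DMSO and at 35.6, 10.2, 8.67 and 14.9 CPM in EZ, with no overlap (log2 2.49 ± 0.17, edgeR adjusted p = 2.02e-04), and GBP3 rose by 2.17 ± 0.19. MME (chromosome 3, 155024124 to 155183729), the cell surface peptidase neprilysin, had one of the smallest adjusted p values. It stood at 129, 133, 143 and 147 CPM in DMSO and at 353, 566, 566 and 485 CPM in EZ, which is a log2 change of 1.81 ± 0.11 (edgeR adjusted p = 2.02e-04). The MME libraries of each group lay close together and far from those of the other, and EZ replicate 1 was here the lowest of the EZ libraries. GALNT10, a glycosyltransferase that starts mucin-type O-glycans, rose by 2.31 ± 0.40, the adrenergic receptor gene ADRA2A by 2.24 ± 0.19, the matrix gene MATN2 by 2.03 ± 0.14 and the apolipoprotein gene APOL1 by 1.86 ± 0.31. CFAP69, a gene of the sperm flagellum, rose by 1.56 ± 0.09, and ZC3H12A, an RNase that destroys cytokine transcripts, by 1.76 ± 0.10. The calls of GBP2, GBP3, MME, ADRA2A, MATN2, CFAP69 and ZC3H12A held without any pair. APOL1 was lost without pair 3, and GALNT10 without pair 2, 3 or 4.

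By the same criteria the lowest log2 changes were in UGT2B28 and UGT2B4, enzymes that glucuronidate steroids. Genes at lower levels went further, down to the pseudogene UGT2B24P at −4.14. UGT2B28 (chromosome 4, 69280499 to 69295050) stood at 20.5, 42.9, 33.9 and 24.4 CPM in DMSO and at 0.665, 7.15, 5.60 and 4.59 CPM in EZ. Every EZ library was below every DMSO library, EZ replicate 1 the lowest, and the log2 change was −2.84 ± 0.36 (edgeR adjusted p = 0.0134; not past the threshold without pair 2 or 3). UGT2B4, at 7.77 to 20.8 CPM in DMSO and 0.332 to 3.77 CPM in EZ, fell by 2.77 ± 0.26 and kept its call without any pair. The UGT2B genes are similar in sequence, and reads could have been divided between them.

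TNFRSF19 (chromosome 13, 23570370 to 23676104), a receptor of the tumour necrosis factor receptor family and a Wnt target, stood at 276, 250, 233 and 166 CPM in DMSO and at 18.1, 56.0, 43.7 and 33.7 CPM in EZ. The 2 groups were far apart and the log2 change was −2.66 ± 0.37 (edgeR adjusted p = 0.0279), though the call was lost without pair 2, 3 or 4. TFF3, a mucosal repair peptide of secretory epithelium, fell by 2.59 ± 0.24, WWTR1, the Hippo pathway coactivator TAZ, by 1.98 ± 0.23, and TFPI, an inhibitor of coagulation, by 1.87 ± 0.26. ALB, the gene of serum albumin, went from 29.4, 91.2, 75.1 and 24.4 CPM to 2.19, 14.8, 12.5 and 8.10 CPM (−2.52 ± 0.34). It was 1 of 6 tested genes typical of other epithelial lines, and the others did not pass the test. Also low in EZ were DHRS2 (−2.34 ± 0.29), HEPACAM2 (−2.07 ± 0.28), SLC22A10 (−1.83 ± 0.28), LRRC31 (−1.52 ± 0.13) and DUSP4 (−1.34 ± 0.12), a phosphatase that shuts off MAP kinases.

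Among the called genes, 308 had a type other than protein-coding and 26 had no type given. Protein-coding genes made up 1999 of the 2333 called genes and 13999 of the 20159 tested genes. Genes of another or no type were thus called less often than protein-coding ones. DRAIC, a long noncoding RNA of prostate cancer, went from 48.4 to 59.4 CPM in DMSO to 13.5 to 31.0 CPM in EZ (−1.11 ± 0.19). ENSG00000263427 fell by 1.85 ± 0.25, and the pseudogene UGT2B27P by 1.79 ± 0.21. SEMA6A-AS1 rose by 1.21 ± 0.22 together with its antisense partner SEMA6A (1.71 ± 0.29), and PRSS23-AS1 rose by 1.49 ± 0.18. The strand setting of the counting is not given, so reads of such partners may not have been told apart.

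Of 30 tested genes of cholesterol synthesis and uptake, 15 fell, 4 rose and 11 did not pass the test, with a median log2 change of −0.46, and the median was −0.33, −0.42, −0.55 and −0.39 in pairs 1 to 4. INSIG1 (chromosome 7, 155297776 to 155310235), which retains the sterol sensor complex in the endoplasmic reticulum and is itself a sterol-responsive gene, stood at 232, 369, 414 and 457 CPM in DMSO and at 114, 114, 113 and 166 CPM in EZ. No EZ library reached the lowest DMSO library, and the log2 change was −1.51 ± 0.13 (edgeR adjusted p = 0.00155; past the threshold without any pair). Among the enzymes of the pathway, HMGCS1 fell by 0.55 ± 0.12, SQLE by 0.65 ± 0.07 and FDFT1, the entry into sterol synthesis, by 0.68 ± 0.09. The transcription factor gene SREBF2 fell by 0.44 ± 0.09.

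Of the 4 that rose, ABCG1, an exporter of cholesterol, went from 12.4 to 22.7 CPM to 28.7 to 33.0 CPM (0.95 ± 0.13), and MYLIP, a ubiquitin ligase induced by sterols, rose by 0.61 ± 0.09. The other 2 were INSIG2 (0.44 ± 0.08) and TM7SF2 (0.48 ± 0.10). Without pair 1 the count was 17 lower and 4 higher, without pair 2 it was 5 and 1, without pair 3 it was 3 and 1 and without pair 4 it was 14 and 4. Fatty acid synthesis genes had 8 of 21 lower and none higher, with a median of −0.29. FASN, the fatty acid synthase, fell by 0.80 ± 0.12, the desaturase genes FADS2 and SCD by 0.96 ± 0.16 and 0.75 ± 0.13, and ACLY, which makes cytosolic acetyl-CoA, by 0.61 ± 0.10. That count was 11 lower without pair 1, 1 without pair 2, 1 without pair 3 and 10 without pair 4.

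Of the 42 gene lists, that of cytosolic ribosomal proteins had the most members called in 1 direction. Of 42 tested, 33 fell and none rose, all 42 had a negative log2 change, and the median was −0.44 (−0.48, −0.40, −0.32 and −0.62 in pairs 1 to 4). RPS9 (chromosome 19, 54200742 to 54249003) stood at 264, 275, 262 and 297 CPM in DMSO and at 132, 171, 179 and 177 CPM in EZ. The groups did not overlap, and the log2 change was −0.74 ± 0.08 (edgeR adjusted p = 0.00213). RPL5 fell by 0.81 ± 0.07, RPS14 by 0.69 ± 0.09, RPS3 by 0.60 ± 0.08 and RPL7A by 0.52 ± 0.08. Without pair 1, 2, 3 or 4 the count of lower genes was 34, 11, 12 and 23, and no member rose in any of these fits. Many of these genes have processed pseudogenes to which reads could have been assigned.

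The transcripts of ribosomal proteins are known to begin with a terminal oligopyrimidine (TOP) tract, through which growth signalling controls their translation and stability. In RefSeq starts on GRCh38.p14, a TOP start (C at the first base, then at least 4 C or T, on the sense strand only) was found for 24 of the 32 members in the table (75%), against 1404 of 27305 genes (5.14%). The windows of 4 members whose change also differed from that in WT cells, as given below, show the tract, each with 15 bases before and 15 from the start and the pyrimidine run from the start in capitals. They lie at chr19:54200843-54200872 (+), chr5:150449725-150449754 (−), chr9:133348203-133348232 (+) and chr11:75399503-75399532 (+).
RPS9: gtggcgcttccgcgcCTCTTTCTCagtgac
RPS14: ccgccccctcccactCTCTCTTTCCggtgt
RPL7A: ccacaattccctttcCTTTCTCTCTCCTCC
RPS3: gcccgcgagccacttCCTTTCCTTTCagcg
In RPL7A the run fills the 15 bases shown. The median log2 change was −0.41 for the 24 members with a TOP start and −0.51 for the 8 without one. Among other genes of translation, chosen after their values were seen, EEF1A1 stood at 8744, 9428, 2979 and 3897 CPM in DMSO and at 5256, 5500, 2030 and 2051 CPM in EZ. Its level was higher in replicates 1 and 2 than in 3 and 4, but it was lower in EZ in every pair (−0.75 ± 0.10). EEF2 fell by 0.60 ± 0.10, EEF1B2 by 0.57 ± 0.08, EIF3E by 0.68 ± 0.07 and TPT1 by 0.63 ± 0.10. MYC, a driver of ribosome synthesis, fell by 0.48 ± 0.07, with 144 to 210 CPM in DMSO and 104 to 139 CPM in EZ.

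**Figure D3:**
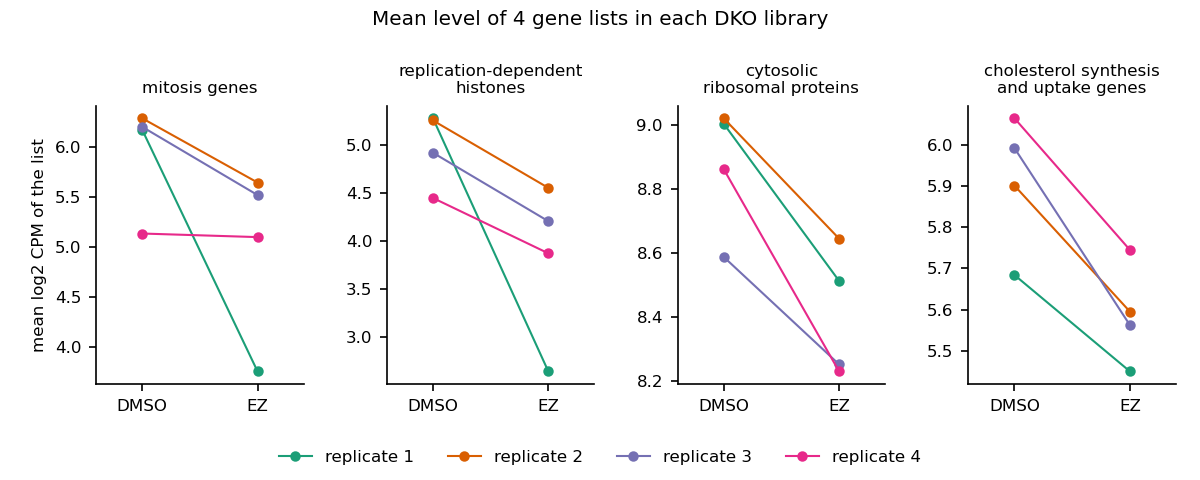
Mean log2 CPM of 4 gene lists (vertical axis, a different range in each panel) in the DMSO and EZ libraries of DKO cells, with a line joining the libraries of each replicate number. Ribosomal protein and cholesterol genes had lower means in EZ in all 4 pairs, while mitosis genes went from 6.17 to 3.76 in pair 1 and from 5.13 to 5.10 in pair 4.

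Antigen presentation genes were examined next. MHC class I molecules carry peptides to the cell surface, and the immunoproteasome and TAP transporter supply them. Of 15 genes of this list 7 rose and none fell, all 15 had a positive log2 change, and the median was 0.83 (1.53, 0.57, 0.72 and 0.45 in pairs 1 to 4). B2M (chromosome 15, 44711487 to 44718877), the shared light chain, stood at 182, 178, 156 and 314 CPM in DMSO and at 438, 294, 274 and 477 CPM in EZ. DMSO replicate 4 was above 2 of the EZ libraries, so the groups overlapped, but each EZ library was above its own DMSO library (0.85 ± 0.11, edgeR adjusted p = 0.00302). The immunoproteasome genes PSMB8 and PSMB9 rose by 1.59 ± 0.26 and 1.46 ± 0.28, HLA-C by 0.94 ± 0.19, TAPBP by 0.68 ± 0.10 and TAP1 by 0.56 ± 0.11. HLA-B, at 23.4 to 60.2 CPM in DMSO and 57.9 to 122 CPM in EZ, did not pass the test (1.30 ± 0.31, edgeR adjusted p = 0.073). The count was 10 without pair 1, 1 without pair 2, 2 without pair 3 and 7 without pair 4, and only B2M among the 7 kept its call in all 4. Reads of the HLA genes can be shared between them.

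Interferon-response elements typically hold the letters GAAANNGAA. This motif, searched on both strands of the 300-base promoter window, was found for 9 of 12 members in the RefSeq table (75%) and for 2693 of 27305 genes (9.86%). The median log2 change was 0.56 for the 9 members with the motif and 1.30 for the 3 without it. The stretches that hold it in TAP1, whose start it precedes on the other strand, and in B2M are shown with the motif in capitals, at chr6:32853805-32853849 (−) and chr15:44711361-44711405 (+).
TAP1: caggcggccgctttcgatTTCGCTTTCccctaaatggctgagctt
B2M: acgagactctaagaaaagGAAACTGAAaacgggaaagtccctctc
Of 37 interferon-stimulated genes, 7 rose and 1 fell, with a median of 0.23 over 4 pairs and 0.13 without pair 1. STAT2, a transcription factor of this response, rose by 0.49 ± 0.08, IFITM3 by 0.58 ± 0.10, and the 1 that fell was HERC6 (−0.35 ± 0.08). That count was 12 higher and 2 lower without pair 1, 0 and 0 without pair 2 or pair 3, and 6 and 0 without pair 4. ISG15, the classic marker of the response, did not pass the test (0.62, edgeR adjusted p = 0.082).

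Few cell cycle genes passed the test, and their differences varied widely between pairs. All 38 mitosis genes had a negative log2 change and the median was −0.88, but none passed the edgeR test. At an unadjusted p under 0.05 there was 1, and DESeq2 called 1 and limma-voom 0. The list's medians were −2.43, −0.68, −0.61 and 0.02 in pairs 1 to 4. TOP2A (chromosome 17, 40388516 to 40417950), a topoisomerase made in dividing cells, stood at 466, 463, 401 and 179 CPM in DMSO and at 67.1, 257, 237 and 173 CPM in EZ. EZ replicate 1 was the lowest library, DMSO replicate 4 was below EZ replicates 2 and 3, and the log2 change of −1.07 ± 0.54 did not pass the test (edgeR adjusted p = 0.297). MKI67, the proliferation marker Ki-67, was at 299, 314, 284 and 87.1 CPM in DMSO and at 52.5, 203, 200 and 117 CPM in EZ. It was thus higher in EZ in pair 4 and lower in the other 3 (−0.77 ± 0.56).

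Without pair 1, 16 of the 38 mitosis genes were called lower, with a median of −0.45, while none was called without pair 2, 3 or 4. CDC20, the activator of the anaphase-promoting complex, stood at 137, 162, 136 and 77.8 CPM in DMSO and 18.2, 79.4, 81.4 and 46.8 CPM in EZ. It was lower in EZ in every pair, with −1.30 ± 0.46 over 4 pairs (edgeR adjusted p = 0.181) and −0.83 without pair 1 (edgeR adjusted p = 1.33e-05). PLK1, a mitotic kinase, gave −1.17 ± 0.49 over 4 pairs and −0.70 without pair 1 (edgeR adjusted p = 0.00517). Promoters of such genes are known for the cell cycle homology region, bound by the DREAM and MuvB complexes, whose repression depends on RB family proteins and p53. Its letters TTTGAA, on either strand of the 300-base window, were found for 23 of 32 members in the RefSeq table (71.9%) and for 4961 of 27305 genes (18.2%). Stretches from 3 members show it in capitals, at chr17:40418024-40418065 (−), chr1:43358898-43358939 (+) and chr16:23678842-23678883 (+).
TOP2A: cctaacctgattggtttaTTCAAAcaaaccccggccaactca
CDC20: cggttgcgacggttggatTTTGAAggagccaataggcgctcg
PLK1: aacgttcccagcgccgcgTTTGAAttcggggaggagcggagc
The median log2 change was −0.86 for the 23 members with the letters and −0.92 for the 9 without them.

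Replication-dependent histone genes, whose transcripts are made in S phase and lack a poly(A) tail, gave a median of −1.13 and −2.71, −0.67, −0.70 and −0.56 in pairs 1 to 4. Only 3 of 39 tested genes passed the test over all 4 pairs (H4C11, H4C5 and H2AC6, all lower), while 33 were called lower without pair 1 and none without pair 2, 3 or 4. H4C5 stood at 200, 187, 123 and 147 CPM in DMSO and at 65.0, 115.7, 84.4 and 89.2 CPM in EZ, with no overlap (−0.89 ± 0.19). Histone genes are near-identical copies and single values are uncertain. Of 46 E2F and DNA replication genes, 2 fell, GINS3 (−0.68 ± 0.17) and PRIM1, a primase subunit (−0.59 ± 0.15), and the list's median was −0.33 (−1.30, −0.20, −0.16 and 0.18 in pairs 1 to 4). Of all tested genes 4.95% were called lower, so the count of 2 was near the background. Neither was called without pair 2 or pair 3. Without pair 1 that median was −0.03, with 7 lower and 3 higher. MCM2, a subunit of the replicative helicase, stood at 119 to 178 CPM in DMSO, at 59.4 CPM in EZ replicate 1 and at 141 to 144 CPM in the other EZ libraries. The pair medians of 16 lists are drawn together in the plot of gene lists by replicate pair.

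**Figure D4:**
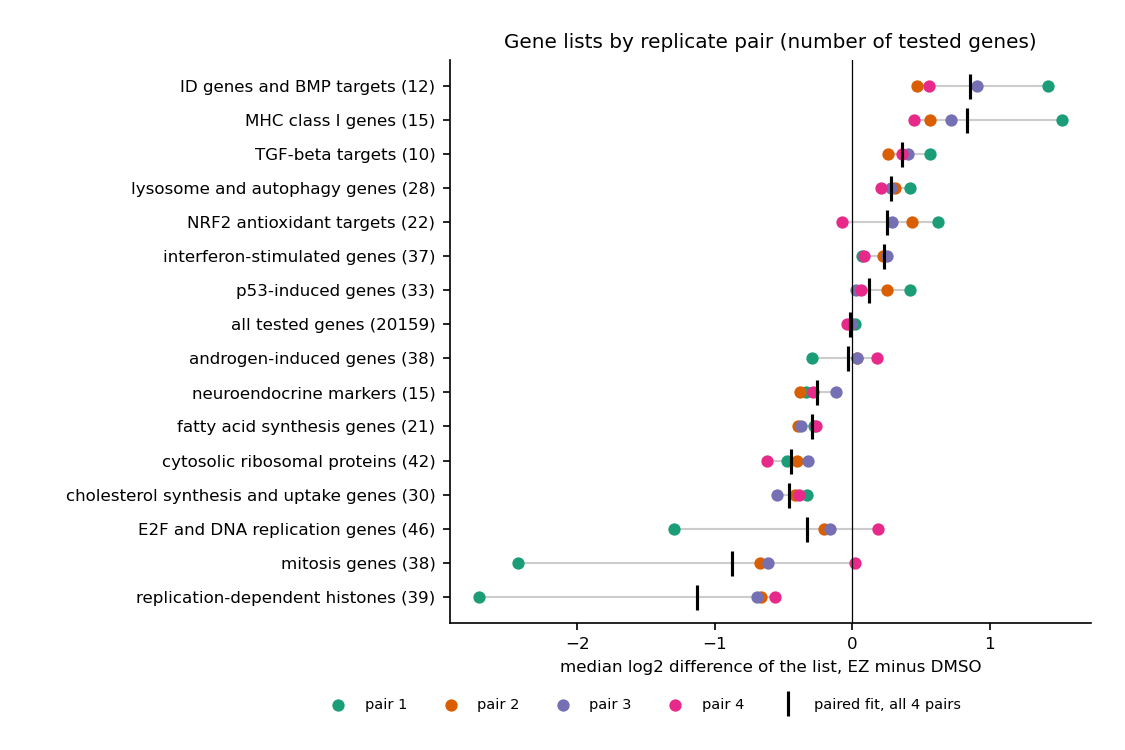
Median log2 difference (EZ minus DMSO, horizontal axis) of 16 gene sets, all tested genes included, in each of the 4 replicate pairs (coloured points) and in the paired fit (black bar). Ribosomal protein and cholesterol genes lie between −0.62 and −0.32 in all 4 pairs, while mitosis genes run from −2.43 in pair 1 to 0.02 in pair 4.

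Androgen-regulated genes did not move in 1 direction. Of 38 tested androgen-induced genes, 4 rose and 2 fell, with a median of −0.03 (−0.29, 0.04, 0.03 and 0.18 in pairs 1 to 4). Over all tested genes 6.62% were called higher and 4.95% lower, so these counts were near the background. KLK3, the gene of prostate-specific antigen, stood at 12.3, 3.07, 2.14 and 1.26 CPM in DMSO and at 0.798, 1.21, 1.96 and 0.974 CPM in EZ. DMSO replicate 1 was far above the other libraries, and the log2 change of −1.31 ± 0.69 did not pass the test (edgeR adjusted p = 0.302). KLK2 had the same pattern, with 33.2 CPM in DMSO replicate 1, 3.34 to 10.8 CPM in the other DMSO libraries and 2.26 to 4.78 CPM in EZ (−1.40 ± 0.75). FKBP5, a chaperone gene induced by androgens and glucocorticoids, gave −0.36 ± 0.28 with an edgeR adjusted p of 0.469.

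TMPRSS2 rose in every pair, from 94.5, 29.1, 25.8 and 24.6 CPM in DMSO to 122, 47.3, 66.4 and 66.1 CPM in EZ (0.97 ± 0.20, edgeR adjusted p = 0.0353). The call was lost without pair 2, 3 or 4. ADAMTS1, a secreted metalloprotease, rose by 1.41 ± 0.09 and MAF by 0.99 ± 0.18, while the acyl-CoA synthetase gene ACSL3 fell by 0.72 ± 0.13 and UAP1, of the hexosamine pathway, by 0.58 ± 0.07. Without pair 1 the androgen-induced list had 12 of 38 higher and 3 lower. In that fit 1932 of 20719 tested genes were higher and 1636 lower, so the list's share of higher genes was above that background. Without pair 2 or pair 3 the list had 1 and 1, and without pair 4 it had 2 and 3. The luminal transcription factor genes GATA2 and GRHL2 rose by 0.91 ± 0.20 and 0.57 ± 0.07, and the coactivators NCOA2 and NCOA3 by 0.47 ± 0.08 and 0.50 ± 0.06. The list of luminal markers had 3 of 17 tested genes higher and 1 lower, with 10 positive and 7 negative log2 changes, from −2.59 to 1.81. Its median was 0.12 (−0.25, 0.16, 0.23 and 0.31 in pairs 1 to 4). Of 23 androgen-repressed genes, 4 rose and 4 fell, including UGT2B28 and UGT2B4 among the latter. Both shares were above the 6.62% called higher and 4.95% called lower over all tested genes. Without pair 1 these counts were 9 higher and 8 lower, and without pair 2 they were 2 and 3. Without pair 3 they were 2 and 2, and without pair 4 they were 3 and 3.

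In these cells without p53, 7 of 33 tested p53-induced genes rose and 1 fell, where 6.62% and 4.95% of all tested genes did. The list's median log2 change was 0.12 (0.42, 0.25, 0.03 and 0.06 in pairs 1 to 4), with 17 genes above 0 and 16 below. BTG2, an antiproliferative gene, went from 26.6 to 30.6 CPM to 53.7 to 83.0 CPM with no overlap (1.18 ± 0.12, edgeR adjusted p = 0.00163; held without any pair). TP53INP1 rose by 0.77 ± 0.12 and SESN1, a stress-induced inhibitor of growth signalling, by 0.55 ± 0.07, while CCNG1 fell by 0.37 ± 0.07. SESN1 rose less than in WT cells (1.31), with a difference of −0.74 in the 16-library test given below (edgeR adjusted p = 0.0489). CDKN1A, the p21 inhibitor of cyclin-dependent kinases, was at 6.34, 6.19, 6.89 and 17 CPM in DMSO and at 39.9, 17, 15.9 and 21.2 CPM in EZ. It was higher in EZ in every pair, with 1.36 ± 0.42 (edgeR adjusted p = 0.126) over 4 pairs and 0.91 (edgeR adjusted p = 0.024) without pair 1. The list's count was 8 higher without pair 1, 2 without pair 2, 3 without pair 3 and 8 without pair 4.

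Guidance and signalling genes rose in part, and over all tested genes 6.62% were called higher and 4.95% lower. SLIT1, a secreted guidance ligand, went from 8.37, 6.15, 7.55 and 14.9 CPM to 46.7, 29.4, 28.4 and 47.4 CPM (2.06 ± 0.14). Of 28 genes in the SLIT, ROBO and semaphorin list, 6 rose and 1 fell. Beside SLIT1, SEMA6A (1.71 ± 0.29), the receptor genes NRP2 (1.59 ± 0.26) and NRP1 (0.80 ± 0.13), SEMA3C (1.20 ± 0.07) and SEMA3F (0.81 ± 0.09) rose, and the SLIT receptor gene ROBO1 fell (−0.41 ± 0.10). Without pair 1, 2, 3 or 4 the count of higher genes was 7, 3, 3 and 5. In the Hippo list, AMOTL1, which binds YAP, rose by 1.78 ± 0.25 and YAP1 by 0.63 ± 0.13, opposite to WWTR1. The 19 tested Hippo genes had 5 higher and 1 lower, and without pair 1, 2, 3 or 4 the count of higher ones was 8, 0, 1 and 5. Among 19 tested Notch genes 4 rose and 3 fell, HES1 rising by 1.45 ± 0.14 and HES6 falling by 1.51 ± 0.19. The Notch list's pair medians were 0.04, 0.29, 0.09 and −0.09, and without pair 1 it had 5 higher and 3 lower. SPRY4, a feedback inhibitor of receptor tyrosine kinases, went from 0.0466 to 0.331 CPM to 1.80 to 5.98 CPM (3.55 ± 0.36).

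Among detoxifying and lysosomal genes, HMOX1, which degrades haem, rose from 6.83 to 13.8 CPM in DMSO to 22.2 to 35.8 CPM in EZ (1.48 ± 0.27). NQO1 rose by 0.83 ± 0.19 and AKR1C1 by 1.35 ± 0.24, and the NRF2 list had 6 of 22 higher and 2 lower. Without pair 1 these were 5 and 4, without pair 2 or pair 3 they were 0 and 0, and without pair 4 they were 11 and 1. CYP1A1, a target of the aryl hydrocarbon receptor, rose from 0.195 to 0.945 CPM to 1.58 to 2.86 CPM (2.32 ± 0.35). Of 28 lysosome and autophagy genes, 9 rose and 1 fell, with CTSB, a cathepsin, up by 0.52 ± 0.08 and LAMP2, a lysosomal membrane protein, by 0.47 ± 0.07. The lysosomal count was 15 higher without pair 1, 0 without pair 2, 1 without pair 3 and 9 without pair 4.

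Neuroendocrine markers did not rise as a group: of 15 tested, 1 rose (ENO2, 0.41 ± 0.09) and 2 fell, with a median of −0.26. These counts were near the background, as 6.62% of all tested genes were called higher and 4.95% lower. ENO2 kept its call in 1 of the 4 fits that left out a pair. Without pair 1 the list had 2 higher and 4 lower. SCG5 fell by 1.505 ± 0.35. SYP and CHGA stood below 2 CPM in every library and did not pass the test.

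Whether the response of DKO cells differed from that of WT cells was tested over all 16 libraries. The difference passed the threshold for 39 of 21810 genes (0.179%), 12 with a higher and 27 with a lower change in DKO, by edgeR with replicate blocks within genotype. At an unadjusted p under 0.05 the number was 2145. Deviations from the group means of same-numbered WT libraries correlated at 0.383, 0.419, 0.690 and 0.423 for replicates 1 to 4. DMSO replicate 2 of WT cells correlated more with EZ replicate 3 (0.583) than with EZ replicate 2. Without the blocks 0 genes passed the threshold, with 648 at an unadjusted p under 0.05. Leaving out replicate 1, 2, 3 or 4 gave 65, 0, 0 and 13 genes, the 2 counts of 0 with 1285 and 1219 genes at an unadjusted p under 0.05, while DESeq2 on all 16 libraries gave 193. Among 42 ribosomal protein genes, 7 were in this set, all with a lower change in DKO, and the list's median was 0.15 in WT against −0.43 in DKO in the model of 16 libraries. RPS9, in CPM scaled over 16 libraries, went from 252 ± 18.7 in DMSO to 154 ± 23.9 in EZ for DKO cells (SD, n = 4) and from 349 ± 65.6 to 362 ± 75.7 for WT cells, and the difference of log2 changes was −0.77 ± 0.12 (edgeR adjusted p = 0.0321). Over all 73 tested genes with RPL or RPS symbols, a set chosen after the values were seen, 57 fell in DKO in the paired fit of 8 libraries, 12 differed from WT, and the median change in the model of 16 libraries was −0.45 in DKO and 0.16 in WT.

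**Figure D5:**
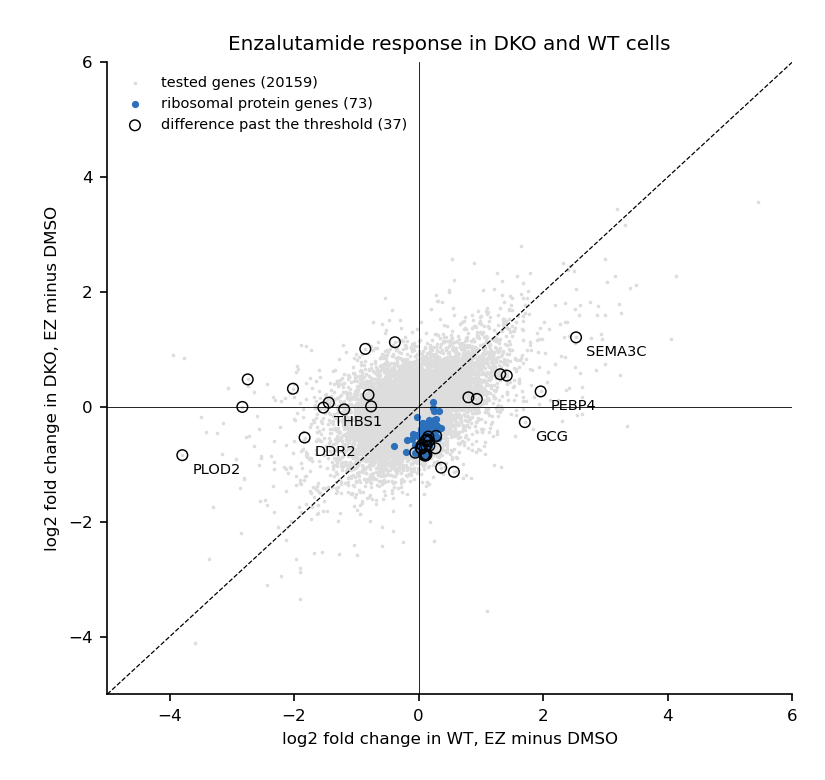
Log2 fold change of EZ against DMSO in DKO cells (vertical axis) and in WT cells (horizontal axis), both from the model of 16 libraries, for 20159 genes, with ribosomal protein genes in blue and the 37 of these genes whose difference passed the threshold circled. Ribosomal protein genes lie below the dashed line of equal change, with medians of 0.16 in WT and −0.45 in DKO over 73 genes.

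Among the other named genes that differed, PLOD2 (chromosome 3, 146069440 to 146163653), a collagen lysyl hydroxylase, went from 10.1 ± 4.85 to 0.708 ± 0.116 CPM (SD, n = 4) in WT and from 37.3 ± 15.7 to 19.5 ± 4.59 CPM in DKO. The change in DKO was 2.96 higher on the log2 scale (edgeR adjusted p = 0.029). THBS1, an extracellular matrix glycoprotein, fell from 32.5 ± 8.50 to 11.2 ± 2.60 CPM in WT and stood at 29.8 ± 10.4 and 30.4 ± 14.4 CPM in DKO. The collagen receptor gene DDR2 also fell less in DKO (difference 1.30). SEMA3C rose from 54.8 ± 13 to 316 ± 66.6 CPM in WT and from 34.1 ± 5.43 to 79.1 ± 13.3 CPM in DKO (difference −1.32, edgeR adjusted p = 0.015). PCDH15, a cell adhesion gene, fell in DKO by 1.13 ± 0.19, and its difference from WT was −1.70. For ID1 and INSIG1, the difference did not pass the threshold (0.26, edgeR adjusted p = 0.867, and 0.22, edgeR adjusted p = 0.75), nor did it for any tested member of the MHC class I, cholesterol, mitosis or histone lists.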

How the data were processed

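Total RNA was sequenced after ribosomal RNA depletion, per the labels' protocols. The deposited values are whole-number read counts for each Ensembl gene ID, made by the authors and not normalized. The submitters' processing notes list STAR 2.7.3a and GRCh38, with no role stated. How reads were counted, and with which strand setting, is not given in the sources used here. Symbols were matched for 60357 of 60676 gene IDs and positions for 58503 in GENCODE v29.

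Groups and replicate numbers came from sample titles. The counts entered edgeR 4.0.16 (R 4.3.3) through filterByExpr (minimum count 10, minimum total 15), with TMM scaling, robust quasi-likelihood F-tests, a replicate block plus treatment, and Benjamini-Hochberg adjustment at 0.05. Over the 8 libraries 3 residual degrees of freedom remained. CPM are relative to TMM-scaled sizes, and SE is the log2 change divided by the square root of F. Same-numbered libraries deviated together (4 of 4 correlations over 0.1), so the numbers were taken as pairs. The biological coefficient of variation was 13.6% with the block and 25.5% without it. Differences from WT used all 16 libraries. limma 3.58.1 and DESeq2 1.42.0 were alternatives. Pairs of replicates differed by 9.33 to 76.4 in chi-square per degree of freedom, so none was a duplicate.

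Of 987 entries in 42 gene lists, 982 matched and 850 were tested. Lists are described by counts and medians with no set test. Named genes were the 12 highest and 12 lowest protein-coding log2 changes (called, at least 5 CPM, same sign in 4 pairs), the 3 smallest adjusted p and 4 noncoding genes in each direction, up to 2 extreme called members per list in each direction, a panel of 24 genes, and up to 5 genes differing from WT in each direction. Some genes are not reported here. Other genes named were chosen after their values were seen. The members and lists were chosen with earlier results of these data known. Promoter windows are RefSeq's (GRCh38.p14); a gene counted if any of its starts held the motif.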

Additional observations from a re-analysis of the deposited data

Results flagged for a closer look

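Of 336 groups of 4 libraries checked, 36 had a library whose gap to its nearest neighbour was too large a share of the whole range by Dixon's criterion for 4 samples, where chance gives about 1 in 20, and in 17 of the 36 it was EZ replicate 1. That library stood apart, above the other EZ libraries, for ID3 at 104 CPM, ID2 at 122 CPM, ENSG00000234459 at 15.3 CPM, GRHL2 at 438 CPM, BMP7 at 20.5 CPM, DUSP2 at 36.4 CPM, CYP3A5 at 44.9 CPM, SGK1 at 12.5 CPM and THBS1 at 57.6 CPM. It stood below them for GINS3 at 6.85 CPM, MANF at 28.8 CPM, PDIA4 at 207 CPM, RPS9 at 132 CPM and MCM2 at 59.4 CPM. The mean log2 CPM of a list was apart in EZ replicate 1 for androgen-repressed genes at 3.46, ID genes and BMP targets at 4.98 and luminal markers at 6.04. EZ replicate 4 was the highest for INSIG1 at 166 CPM and MAF at 30.2 CPM.

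DMSO replicate 4 lay above its group for ID2 at 24.1 CPM, AMOTL1 at 10.9 CPM, ENSG00000232855 at 24.3 CPM, TP53INP1 at 609 CPM, VGLL4 at 121 CPM, HES6 at 45.2 CPM, CTSB at 203 CPM and CDKN1A at 17 CPM, and below it for GINS3 at 13.7 CPM and MKI67 at 87.1 CPM. Among list means in mean log2 CPM, it was apart for E2F and DNA replication genes at 4.82, mitosis genes at 5.13 and interferon-stimulated genes at 3.47. DMSO replicate 1 lay above its group for KLK3 at 12.3 CPM and TMPRSS2 at 94.5 CPM, and below it for GCG at 0.937 CPM and for fibroblast markers at a mean log2 CPM of 1.68.

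The log2 change of 10 named genes differed between DKO and WT cells by the edgeR test of the difference. The change in DKO minus that in WT was 2.96 for PLOD2, 1.52 for LINC01133, 1.52 for THBS1, 1.51 for ENSG00000272791 and 1.30 for DDR2. It was −1.97 for GCG, −1.70 for PCDH15, −1.69 for PEBP4, −1.32 for SEMA3C and −0.77 for RPS9. None of the differences was called without replicate 2 or without replicate 3.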

How the results depend on the processing

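Without the replicate block, 326 genes were called (214 higher, 112 lower), and 321 of them were among the 2333 called with it in the same direction. All 16 libraries without the block gave 322 (225 and 97), and with it 1691. Leaving out 1 pair gave 329 to 3568 genes, 205 to 1932 higher and 119 to 1636 lower. Pairs 1 and 2 alone gave 157 (119 higher, 38 lower) and pairs 3 and 4 alone 2368. Testing every gene with at least 1 count gave 3696 (1887 higher, 1809 lower). DESeq2 (2611), limma-voom (2381), RLE (2353), upper-quartile (2354) and unscaled totals (2304) stayed within 1.5 times of 2333, as did the filter of 1 CPM in 4 libraries (2291). The difference between DKO and WT fell to 0 genes without the block and ranged from 0 to 65 when a replicate was left out. DESeq2 gave 193. The cause of these changes was not tested.

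Of the 133 named genes, 5 changed sign under some setting, and none of the 5 was called over the 4 pairs. Leaving out a pair moved the log2 change of RB1 between −0.0177 and 0.202, of LINC01133 between −0.10 and 0.26 and of THBS1 between −0.13 and 0.14. Pairs 3 and 4 alone gave 0.0596 for FKBP5, 0.0621 for MCM2 and −0.17 for LINC01133. For LINC01133 limma-voom gave −0.0185. THBS1 gave 0.0155 without the block, 0.0259 over 16 libraries without the block and 0.17 in pairs 1 and 2 alone. Without pair 1, 1 named call was lost (ENSG00000232855, edgeR adjusted p = 0.101). Genes with few counts did not pass the filter, so depth limits what can be said of them.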

Other observations

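Several further gene groups were counted, with 11.6% of all tested genes called in the same fit. Of 28 ATF4 and integrated stress genes, 4 fell and none rose. The median was −0.31 over 4 pairs, −0.07, −0.10, −0.08 and −0.80 in pairs 1 to 4, and −0.11 without pair 4, where 2 were lower. DMSO replicate 4 had the highest mean log2 CPM of this list, 6.91 against 6.03 to 6.27 in the other DMSO libraries. Among its members, the amino acid transporter gene SLC7A5 stood at 11.8, 12.7, 14.9 and 21.9 CPM in DMSO and at 8.44, 6.46, 10.2 and 9.09 CPM in EZ (log2 −0.83 ± 0.15). The EZ libraries were all below the DMSO libraries for SLC7A5. Of 19 endoplasmic reticulum chaperones, 3 fell and none rose, MANF by 0.49 ± 0.11 and PDIA4 by 0.36 ± 0.07. Of 26 hypoxia and glycolysis genes, 5 fell and 2 rose. GAPDH, a glycolytic enzyme often used as a reference gene, stood at 1265, 1552, 1459 and 1356 CPM in DMSO and 789, 1093, 1181 and 1091 CPM in EZ (−0.45 ± 0.09), with no overlap, while the oxygen sensor gene EGLN3 rose by 0.86 ± 0.16. Without pair 2 or pair 3, edgeR called no member of these 3 lists.

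Immediate early genes had 4 of 16 higher and 1 lower, with EGR1 at 22.3 to 52.8 CPM in DMSO and 63.1 to 85.3 CPM in EZ (0.91 ± 0.18). Without pair 2 or pair 3, 1 of these genes was higher. MAPK feedback genes had 4 of 18 higher and 1 lower, and 1 higher and 1 lower without pair 2 or pair 3. Among Wnt feedback genes LEF1 rose by 0.95 ± 0.10 and LGR6, which was under 2 CPM in every library, fell by 1.38 ± 0.35. SGK1, a glucocorticoid-induced kinase, rose by 1.06 ± 0.16, and 2 of 14 genes of that list were higher, against 5, 1, 0 and 1 without pairs 1, 2, 3 and 4. Of 36 nuclear respiratory chain genes edgeR called 0, with 3 at an unadjusted p under 0.05, 0 called by DESeq2 and 1 lower by limma-voom. Of 13 mitochondrial genome transcripts edgeR called 0, with 5 at an unadjusted p under 0.05, 4 higher by DESeq2 and 1 higher by limma-voom. Their median was 0.47 over 4 pairs, 0.48, −0.17, 0.38 and 1.003 in pairs 1 to 4, and 0.26 without pair 4.

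VWF, an endothelial gene, fell from 5.38 to 11.7 CPM in DMSO to 2.73 to 5.08 CPM in EZ (−1.04 ± 0.25), a call not made without pair 2 or pair 3. The 8 endothelial markers summed to 9.92 to 17.7 CPM in DMSO and 5.97 to 8.65 CPM in EZ on unscaled totals. The 9 fibroblast markers summed to 31.3 to 53.6 CPM in DMSO and 42.2 to 58.0 CPM in EZ, with COL1A1 the highest single gene. The part of such markers in the results was not tested.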
